A study of Mus musculus with 15 samples.

Results

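The nuclear-encoded subunits of respiratory complex I were examined in gonadal white adipose tissue of Sfrp5 knockout and wild-type mice. The members were a fixed list of 36 genes from the Ndufa, Ndufb, Ndufc, Ndufs and Ndufv families. A member was measured where at least 1 probe set of the array carried its symbol alone, and its brightest probe set over 15 arrays stood for it. This gave values for 35 of the 36 members among 19938 named genes. The 36th, Ndufb4, had no probe set of its own, since both of its probe sets also name Ndufb4b. The knockout group was 8 male mice of genotype Sfrp5 KO (Q27Stop), whose allele carries a stop codon in the gene of a secreted Wnt-binding protein, and it was compared with 7 male wild-type mice. Both groups were C57BL6/J, ate a high-fat diet for 8 weeks from 4 weeks of age and were 12 weeks old at collection, so no lean mouse enters the comparison. Each biological replicate, taken here as 1 mouse, has 1 Affymetrix array of whole-tissue RNA, and values are log2 signals per probe set. The allele is not limited to fat by any driver named in the labels.

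Complex I, NADH:ubiquinone oxidoreductase, is the largest enzyme of the respiratory chain of the inner mitochondrial membrane. It takes electrons from NADH in its matrix arm, passes them along iron-sulfur clusters to ubiquinone and pumps protons through its membrane arm. The ND genes of mitochondrial DNA encode hydrophobic subunits of the membrane arm. All other subunits are encoded by nuclear genes that must be transcribed, imported and assembled with them. In white adipocytes respiration supports fatty acid synthesis, lipid turnover and adipokine secretion, and fat of obese mice is known for low respiratory capacity.

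Sfrp5 itself read 6.02, 6.77 and 7.12 (lowest, median, highest) in knockout arrays and 7.67, 7.83 and 8.33 in wild-type arrays, and differed by -1.23 on the log2 scale (SE 0.16; limma adjusted p = 0.0200), with no overlap between genotypes. Array medians lay between 6.99 and 7.07. Knockout replicate 2 and wild-type replicate 4 stood apart, with the highest means over 7 epididymis markers (10.99 and 7.46, against at most 6.96 elsewhere) and the lowest median correlations with the other arrays (0.969 and 0.972). In whole tissue, fewer cells of a type and less RNA per cell cannot be told apart.

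Most complex I subunits read slightly higher in knockout fat, and no single subunit passed the threshold. The log2 difference was above 0 for 28 of 35 members on the deposited values, against 44.8% of named genes, and for 20 of 35 after quantile normalization, against 42.9%. Named genes of all signal levels enter these shares, whereas the members are bright, with means of 9.03 to 12.6. The median member differed by 0.07 on the deposited values and by 0.01 after quantile normalization, where the median named gene differed by -0.01 and -0.02. By limma with Benjamini-Hochberg adjustment 0 of 35 members passed, where 12 of 35557 probe sets did (0.0337%), and member adjusted p ranged from 0.423 to 0.977. At an unadjusted p under 0.05 there were 5 members, all higher in knockout fat (2.3% of named genes were past it on that side and 4.39% on the other), and after quantile normalization there was 1 (2.01% and 4.63%). No member had knockout and wild-type arrays that did not overlap, which 0.11% of named genes had. The 95% intervals of the 35 members reached from -0.27 to 0.34, so that a difference beyond 0.828-fold or 1.26-fold lay outside the interval of each member.

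**Figure D1:**
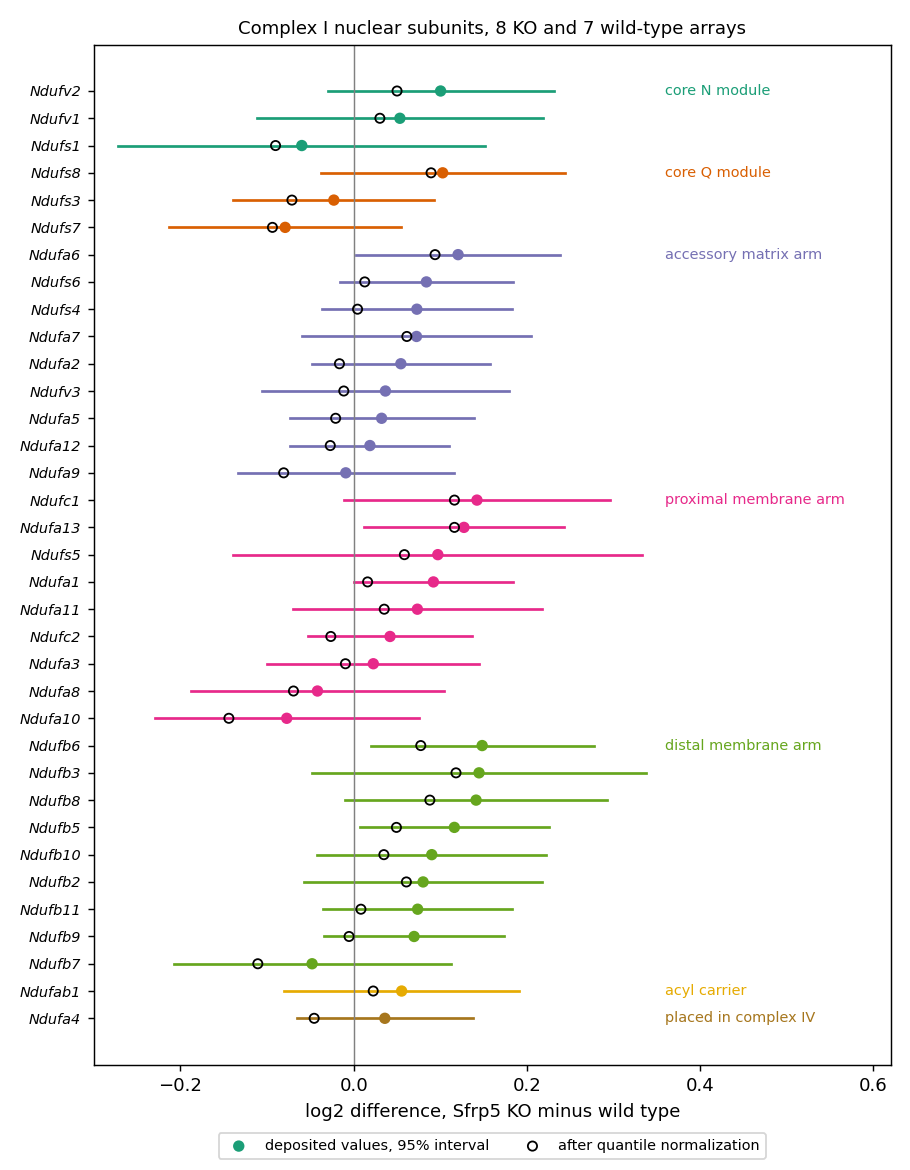
Log2 difference, knockout minus wild type, of each of 35 complex I subunits, ordered by role. Filled points and bars are the limma estimates on deposited values with 95% intervals, open circles the estimates after quantile normalization, which lie to the left of the filled points. Ndufb6, with the lowest p on deposited values (limma unadjusted p = 0.0265), has a log2 difference of 0.15 there and 0.08 after quantile normalization.

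The members lie on 14 chromosomes, and windows around the transcription start were available for 32 of the 35 in RefSeq (build GRCm38.p6), 34 windows in all. Each window holds 250 bases before the start and 50 after it. Letters of factors known to control respiratory genes were searched on both strands in these windows and in all 32851 windows of the table. GCATGCGC, the core of the site of NRF1, a factor that drives many nuclear genes of respiration, was in 3 member windows (8.82%, against 2.71% of all windows). AAGATGGC, a core of the site of YY1, was in 7 (20.6%, against 2.75%). CCGGAAGT, a core of ETS factors such as GABP, was in 1 (2.94%, against 3.89%), AAGGTCA, the site of the estrogen-related receptors, in 2 (5.88%, against 4.72%), and CCAAT, the box of NF-Y, in 9 (26.5%, against 37.4%). Overlap between different motifs was not counted. These matches describe letters, and no binding was measured. G and C made up a median of 57.6% of the 250 bases before the start in member windows and 52.4% in all windows.

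The NRF1 core is shown in capitals in 30 bases of the 3 windows that hold it, since they are the members with letters of that regulator. In Ndufa11 matches on both strands overlap, which gives a longer run of capitals.
Ndufa6, chr15:82354356-82354385, minus strand: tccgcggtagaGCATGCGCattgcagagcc
Ndufa8, chr2:36049328-36049357, minus strand: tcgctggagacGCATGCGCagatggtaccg
Ndufa11, chr17:56717692-56717721, plus strand: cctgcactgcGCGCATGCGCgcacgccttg

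The YY1 core is shown in capitals in 30 bases of its 7 windows, because it was the motif most frequent in member windows relative to all windows. In all 7 it lies after the transcription start, between base 23 and base 46, and reads on the strand of the gene. The core contains the letters ATG, and whether that is the start codon was not analysed here.
Ndufa3, chr7:3617384-3617413, plus strand: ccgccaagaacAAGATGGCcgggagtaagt
Ndufa9, chr6:126849097-126849126, minus strand: cattgtgggagAAGATGGCggccgccgtcc
Ndufb8, chr19:44555393-44555422, minus strand: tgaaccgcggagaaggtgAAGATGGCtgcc
Ndufc1, chr3:51408915-51408944, minus strand: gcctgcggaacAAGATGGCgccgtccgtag
Ndufs4, chr13:114388045-114388074, minus strand: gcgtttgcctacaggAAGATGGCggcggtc
Ndufs6, chr13:73328433-73328462, minus strand: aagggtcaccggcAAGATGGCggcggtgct
Ndufs7, chr10:80249462-80249491, plus strand: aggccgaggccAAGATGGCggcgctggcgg

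The longer window of Ndufa6 is shown because it holds both an NRF1 core and an NF-Y box in its 250 bases before the start, and because Ndufa6 is among the 5 members at an unadjusted p under 0.05. It spans chr15:82354292-82354541 on the minus strand, with both matches in capitals.
Ndufa6: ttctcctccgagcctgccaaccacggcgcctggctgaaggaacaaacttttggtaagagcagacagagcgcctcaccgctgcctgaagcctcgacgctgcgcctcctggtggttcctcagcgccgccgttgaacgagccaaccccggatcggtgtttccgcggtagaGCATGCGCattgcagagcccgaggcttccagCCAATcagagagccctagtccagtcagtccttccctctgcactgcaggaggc

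Among the 3 core subunits of the N module, which bind NADH and take its electrons, 2 were higher in knockout fat. Differences between these subunits were not tested. Ndufv1, which holds the flavin and the NADH site, read 9.86, 10.02 and 10.21 (lowest, median, highest) in knockout arrays and 9.60, 10.03 and 10.11 in wild-type arrays. The medians were close, and the low wild-type value came from replicate 7 alone, without which the log2 difference of 0.05 became -0.01. Ndufv2, an iron-sulfur subunit beside it, read 10.64, 10.85 and 10.98 in knockout arrays and 10.58, 10.76 and 10.87 in wild-type arrays, and the genotypes overlapped at a difference of 0.10 (SE 0.06; limma adjusted p = 0.646). Ndufs1, the largest subunit, which carries several clusters, read 10.01, 10.39 and 10.56 in knockout arrays and 10.23, 10.33 and 10.58 in wild-type arrays. Its difference was -0.06 (SE 0.10; limma adjusted p = 0.897), and its SD was 0.24 in the knockout and 0.14 in wild type. Among knockout arrays, replicates 1, 7 and 8 lay below every wild-type array, at 10.01 to 10.09.

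Among the 3 core subunits of the Q module, which hand electrons to ubiquinone, 1 was higher in knockout fat, and differences between them were not tested either. Ndufs8, an iron-sulfur subunit, read 9.37, 9.49 and 9.63 in knockout arrays and 9.23, 9.37 and 9.63 in wild-type arrays, and differed by 0.10 (SE 0.07), at an adjusted p of 0.670 by limma. Ndufs7, which holds the last cluster before ubiquinone, read 8.82, 8.99 and 9.18 in knockout arrays and 8.86, 9.08 and 9.23 in wild-type arrays. Its difference of -0.08 (SE 0.06; limma adjusted p = 0.754) was the lowest of the 35 on deposited values, and 1 of 8 knockout arrays lay above the wild-type mean. The Ndufs7 difference was -0.09 after quantile normalization. Ndufs3, a structural core subunit without a cluster, read 10.68, 10.79 and 10.91 in knockout arrays and 10.74, 10.78 and 11.02 in wild-type arrays, a difference of -0.02 (SE 0.05). A second Ndufs3 probe set differed by -0.04. Over the 6 core subunits of both modules 3 were higher and 3 lower, and none of the 6 had an unadjusted p under 0.05.

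Of the 9 accessory subunits of the matrix arm, 8 were higher in knockout fat on deposited values and 4 after quantile normalization. Ndufa6, a small protein at the hinge of the matrix arm that docks the acyl carrier protein, read 10.12, 10.31 and 10.42 in knockout arrays and 10.06, 10.19 and 10.28 in wild-type arrays. Its difference was 0.12 (SE 0.06; limma unadjusted p = 0.0452, adjusted p = 0.488), with 5 of 8 knockout arrays above the highest wild-type array. Ndufs6, which binds zinc and is needed late in assembly of the N module, read 11.93, 11.98 and 12.07 in knockout arrays and 11.80, 11.92 and 12.03 in wild-type arrays. All 8 knockout arrays lay above the wild-type mean of Ndufs6, and the difference was 0.08 (SE 0.05; limma adjusted p = 0.596), or 0.01 after quantile normalization. Ndufa12 had one of the smallest spreads, with 11.15, 11.19 and 11.29 in knockout arrays and 11.09, 11.20 and 11.24 in wild-type arrays, a difference of 0.02 (SE 0.04). Ndufs4, whose loss causes an early encephalopathy in mice, differed by 0.07 (SE 0.05), and Ndufa9, which binds NADPH, by -0.01 (SE 0.06). The others, Ndufa2, Ndufa5, Ndufa7 and Ndufv3, differed by 0.03 to 0.07.

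The proximal membrane arm joins the matrix arm to the proton pumps, and 7 of its 9 measured accessory subunits were higher in knockout fat, 5 of 9 after quantile normalization. Ndufa13, also known as GRIM-19, read 9.06, 9.22 and 9.37 in knockout arrays and 8.96, 9.13 and 9.19 in wild-type arrays. Its difference of 0.13 (SE 0.05; limma unadjusted p = 0.0332, adjusted p = 0.450) stayed at 0.12 after quantile normalization (unadjusted p = 0.0446, adjusted p = 0.536), and 6 of 8 knockout arrays lay above the highest wild-type array. Ndufa1, an X-linked subunit needed to build the membrane arm, read 12.55, 12.62 and 12.70 in knockout arrays and 12.43, 12.54 and 12.58 in wild-type arrays. Its spread within genotypes was small (SD 0.06 in the knockout and 0.05 in wild type), so that a difference of 0.09 (SE 0.04) had a limma unadjusted p of 0.0491 (adjusted p = 0.499), but it was 0.02 after quantile normalization. Ndufc1, a small membrane subunit, read 10.03, 10.22 and 10.31 in knockout arrays and 9.72, 10.13 and 10.22 in wild-type arrays, with wild-type replicate 7 well below the other 6 wild-type arrays. Its difference of 0.14 (SE 0.07; limma adjusted p = 0.550) was 0.08 without that array, and 0.09 on a second probe set.

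Ndufs5, a subunit facing the intermembrane space, varied most of all members between mice. It read 10.17, 10.52 and 10.94 in knockout arrays and 10.12, 10.47 and 10.72 in wild-type arrays, and its difference of 0.10 (SE 0.11; limma adjusted p = 0.844) was smaller than either genotype's SD (0.25 and 0.19). Ndufs5 has a near-identical pseudogene, and a probe set that names both differed by 0.13 (SE 0.07). Ndufc2 had the smallest wild-type spread, with 12.06, 12.18 and 12.30 in knockout arrays and 12.09, 12.14 and 12.17 in wild-type arrays. Its difference was 0.04 (SE 0.04), and -0.03 after quantile normalization. Ndufa10 and Ndufa8 were the 2 lower members of this arm on deposited values, at -0.08 (SE 0.07) and -0.04 (SE 0.07). With quantile normalization they were at -0.14 (SE 0.08; limma adjusted p = 0.614) and -0.07 (SE 0.06). The Ndufa10 value was then the lowest of the 35 and the furthest from 0, in a range of -0.144 to 0.118. Ndufa11 and Ndufa3 were at 0.07 and 0.02 on deposited values.

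The distal membrane arm, built around the last pumps by the Ndufb subunits, had the largest mean difference of the groups with more than 1 member. Of its 9 measured members 8 were higher in knockout fat, 7 of 9 after quantile normalization, and the group mean per array was 11.29 ± 0.07 (SD, n = 8) in the knockout and 11.20 ± 0.07 (SD, n = 7) in wild type. Ndufb6 read 11.88, 12.03 and 12.14 in knockout arrays and 11.68, 11.89 and 11.94 in wild-type arrays, with all 8 knockout arrays above the wild-type mean. Its difference of 0.15 (SE 0.06; limma unadjusted p = 0.0265, adjusted p = 0.423), a 1.11-fold higher signal, was the highest of the 35 on deposited values. Ndufb5 read 11.88, 12.01 and 12.16 in knockout arrays and 11.76, 11.89 and 11.97 in wild-type arrays, a difference of 0.12 (SE 0.05; limma unadjusted p = 0.0387, adjusted p = 0.471). After quantile normalization Ndufb6 differed by 0.08 and Ndufb5 by 0.05. Ndufb3 read 9.91, 10.15 and 10.50 in knockout arrays and 9.77, 9.97 and 10.26 in wild-type arrays, and 1 knockout array, replicate 3, lay above the highest wild-type array. Its difference was 0.14 (SE 0.09; limma adjusted p = 0.657). Ndufb7, on the side of the intermembrane space, was the lower member on deposited values, at -0.05 (SE 0.08), and was at -0.11 after quantile normalization. Ndufb2, Ndufb9, Ndufb10 and Ndufb11 differed by 0.07 to 0.09, and a dimmer Ndufb11 probe set by 0.10. The mean difference of the group was 0.09 on deposited values and 0.04 after quantile normalization, beside 0.05 and 0.01 in the proximal arm, 0.05 and 0.00 in the accessory matrix arm, 0.03 and -0.00 in the core N module and 0.00 and -0.03 in the core Q module. Differences between these groups were not tested.

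Of the remaining members, Ndufab1, the mitochondrial acyl carrier protein, which also serves fatty acid and lipoic acid synthesis, differed by 0.06 (SE 0.06) on 1 probe set and by 0.05 on the other. Ndufa4, long counted with complex I and now placed in complex IV, read 12.45, 12.58 and 12.66 in knockout arrays and 12.46, 12.57 and 12.58 in wild-type arrays. Its difference was 0.04 (SE 0.05) and turned to -0.05 after quantile normalization. The 2 probe sets shared by Ndufb4 and Ndufb4b differed by 0.07 and 0.04, and no value was assigned to Ndufb4 from them.

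Ndufb8, Ndufs8 and Ndufv1 lie on chromosome 19, the chromosome of Sfrp5. In the RefSeq order of GRCm38.p6, 59 annotated genes lie between Sfrp5 and Ndufb8, whereas 987 and 975 lie between Sfrp5 and Ndufs8 or Ndufv1. Ndufb8, a subunit whose protein is lost when complex I is not assembled, read 11.14, 11.23 and 11.46 in knockout arrays and 10.86, 11.15 and 11.26 in wild-type arrays. All 8 knockout arrays lay above its wild-type mean, and 4 above the highest wild-type array. The log2 difference was 0.14 (SE 0.07; limma adjusted p = 0.545), 0.09 after quantile normalization and 0.10 without wild-type replicate 7. For a gene near the knockout allele, an effect of the allele and one of linked sequence cannot be told apart.

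The subunits of some mice lay high or low together, in both genotypes. The number of members above their own median over 15 arrays was 17, 9, 28, 20, 26, 33, 11 and 17 of 35 in knockout replicates 1 to 8 and 18, 8, 19, 6, 12, 17 and 4 in wild-type replicates 1 to 7. Knockout replicate 6 held the highest value of 12 members and knockout replicate 3 that of 7. Wild-type replicate 7 held the lowest value of 13 members, knockout replicate 2 that of 6 and wild-type replicate 4 that of 5. The knockout group contained mice with most subunits above their median (replicates 3, 4, 5 and 6) and mice with most below it (replicates 2 and 7). The wild-type group also contained mice with most above it, replicates 1 and 3, with 18 and 19 of 35, and none with more than 19. After quantile normalization wild-type replicate 3 had 27 such members, and knockout replicates 6 and 2 had 32 and 5.

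**Figure D2:**
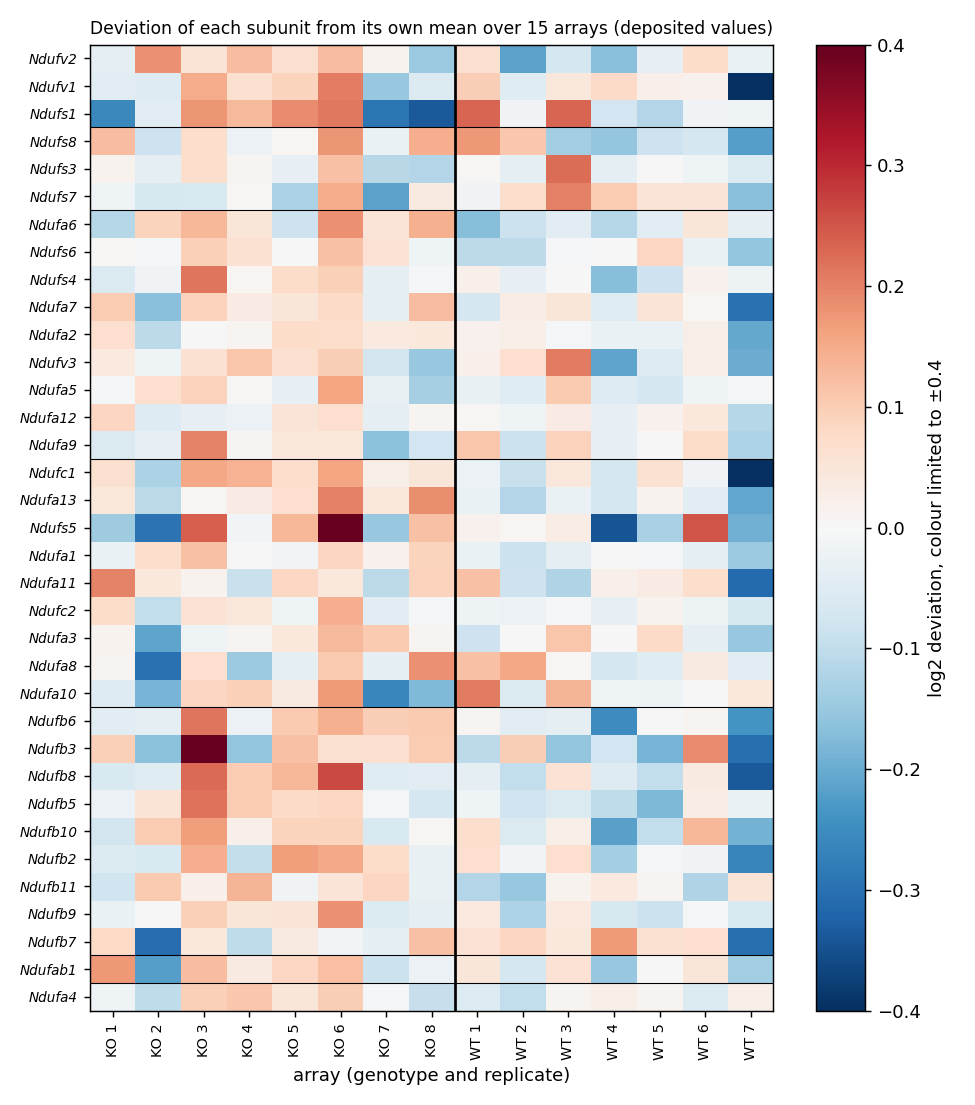
Deviation of each of 35 subunits (rows, by role) from its own mean over 15 arrays, on the log2 scale, with the 8 knockout arrays left of the line and the 7 wild-type arrays right of it. Knockout replicates 3 and 6 are red in most rows and wild-type replicate 7 is blue in most rows.

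The mean over the 35 members was 10.94 ± 0.07 (SD, n = 8) in knockout arrays and 10.88 ± 0.06 (SD, n = 7) in wild-type arrays. The log2 difference of 0.056 (SE over arrays 0.034) is smaller than the SD between mice of either genotype, and it was not tested. The lowest, median and highest values of this mean were 10.85, 10.93 and 11.05 in the knockout and 10.76, 10.89 and 10.94 in wild type. The genotypes overlapped, and knockout replicates 3, 5 and 6 lay above every wild-type array. After quantile normalization the means were 10.92 ± 0.06 (SD, n = 8) in knockout arrays and 10.91 ± 0.05 (SD, n = 7) in wild-type arrays, a difference of 0.01 (SE over arrays 0.03). Without wild-type replicate 7 the difference on deposited values was 0.04, with 26 of 35 members higher and 1 at an unadjusted p under 0.05.

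**Figure D3:**
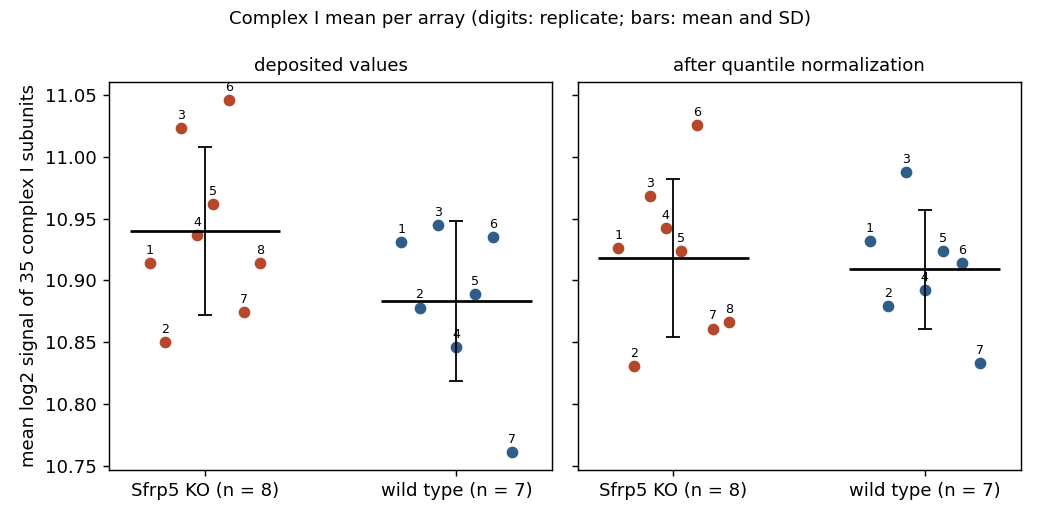
Mean log2 signal of 35 complex I subunits in each array (points, digits give the replicate), with the mean and SD of each genotype, on deposited values (left) and after quantile normalization (right). The difference between genotypes is 0.06 on the left and 0.01 on the right.

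On average over each genotype, 2 measures of the whole array were slightly higher in knockout arrays, as the subunits were, and the genotypes overlapped in both. Signals of the subunits (means of 9.03 to 12.6) lie in the upper part of the array's range. The 90th percentile of all probe sets was 9.93 ± 0.03 (SD, n = 8) in knockout arrays and 9.91 ± 0.04 (SD, n = 7) in wild-type arrays, and the SD over all probe sets was 2.08 ± 0.01 (SD, n = 8) and 2.05 ± 0.02 (SD, n = 7). Knockout replicate 3 had the highest 90th percentile, 9.99, and wild-type replicate 4 the lowest, 9.86. Single arrays did not all follow: wild-type replicates 3 and 7 shared a 90th percentile of 9.879, with complex I means of 10.945 and 10.761. Quantile normalization makes these distributions equal, and with it 8 fewer members were higher in knockout fat. The part of these whole-array measures in the complex I values was not tested.

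Each array description holds an unexplained number. For knockout replicates 7 and 8 it lies in the range of the wild-type arrays, and for the other 6 knockout arrays below that range. The complex I mean was 10.95 in the 6 knockout arrays with lower numbers and 10.89 in the other 2, beside 10.88 in wild type. When the knockout group was cut to replicates 7 and 8, the difference was 0.01, with 21 of 35 members higher and 2 at an unadjusted p under 0.05, both of them lower in the knockout, as 4.85% of all probe sets were in that fit. Without them it was 0.07, with 31 of 35 higher. For the other 6 knockout arrays the number and the genotype cannot be told apart.

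The other genes of the pathway were read from lists of assembly factors, ND genes and the other respiratory complexes. Assembly factors, which build complex I without remaining in it, were higher for 10 of 18 measured genes, and 0 of 18 had an unadjusted p under 0.05 by limma or passed its adjusted threshold. Ndufaf3 and Ndufaf2 were furthest from 0 by p, at -0.11 (SE 0.06; limma adjusted p = 0.558) and 0.11 (SE 0.06; limma adjusted p = 0.586), and Ndufaf6 was at 0.13 (SE 0.08). ND3, a subunit of complex I encoded by mitochondrial DNA, was the single ND gene with a probe set of its own. It read 12.42, 12.77 and 12.90 in knockout arrays and 12.26, 12.45 and 12.55 in wild-type arrays, with knockout replicate 1 the single one within the wild-type range. The difference was 0.33 (SE 0.07; limma adjusted p = 0.0951), or 0.25 after quantile normalization (adjusted p = 0.209), and a second ND3 probe set differed by 0.34. No nuclear member had a difference as large, and the contrast between ND3 and the nuclear members was not tested.

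Subunits of complexes II to V, the rest of the chain and ATP synthase, were higher for 28 of 36 measured genes, 17 of 36 after quantile normalization, and 6 had an unadjusted p under 0.05, all of them higher in the knockout (2.3% of named genes were past it on that side and 4.39% on the other). Their mean per array was 11.41 ± 0.06 (SD, n = 8) in knockout arrays and 11.35 ± 0.06 (SD, n = 7) in wild-type arrays. Atp5l of ATP synthase differed by 0.20 (SE 0.05; limma adjusted p = 0.180), Uqcrb of complex III by 0.20 (SE 0.06; limma adjusted p = 0.217) and Cox7b of complex IV by 0.16 (SE 0.05; limma adjusted p = 0.281). The mean difference of complexes II to V was 0.06 on deposited values and 0.00 after quantile normalization, next to 0.06 and 0.01 for complex I. Array by array both lists moved together, since the mean of complexes II to V exceeded that of complex I by 0.444 to 0.501 in all 15 arrays. Wild-type replicate 7 was lowest and knockout replicate 6 highest in both.

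**Figure D4:**
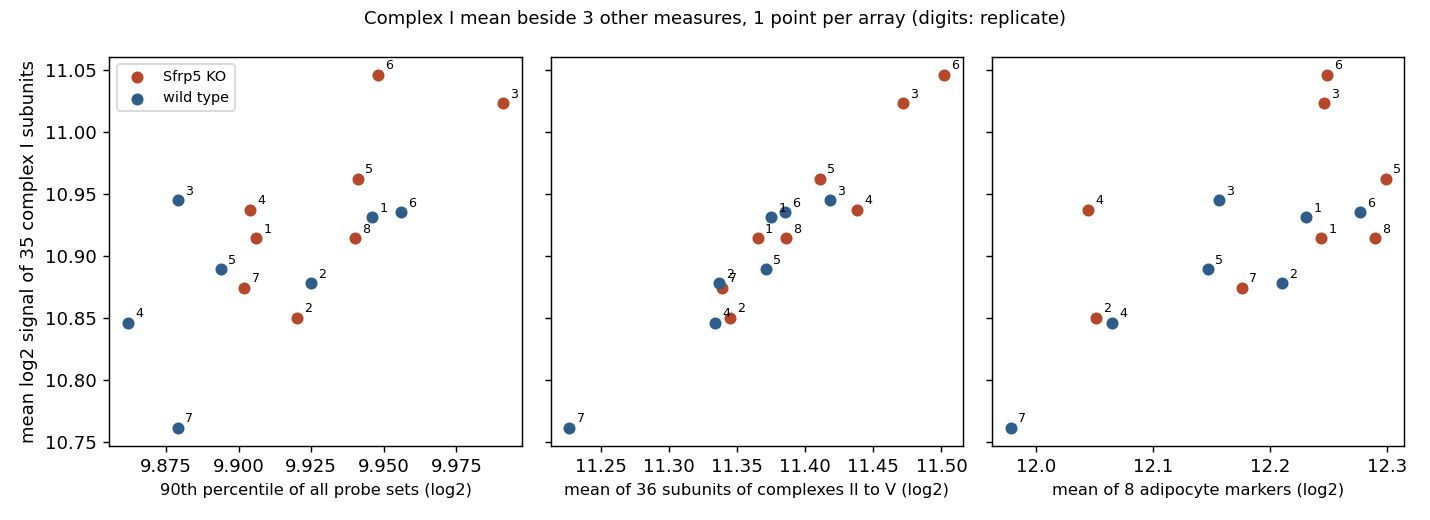
Mean log2 signal of 35 complex I subunits against the 90th percentile of all probe sets (left), the mean of 36 subunits of complexes II to V (middle) and the mean of 8 adipocyte markers (right), 1 point per array. Wild-type replicate 7 is lowest on the complex I axis, for complexes II to V (11.23) and for adipocyte markers (11.98).

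Cell type markers were set beside the subunits, because adipocytes, immune cells and stromal cells differ in mitochondrial content. Adipocyte markers were bright in every array, and 6 of 8 were higher in knockout fat, 3 of 8 after quantile normalization, with list means of 12.04 to 12.30 in knockout arrays and 11.98 to 12.28 in wild-type arrays. Adipoq, which encodes the adipokine adiponectin, was at 0.17 (SE 0.06; adjusted p = 0.328 by limma) and Cd36, a fatty acid transporter, by 0.08 (SE 0.04). Macrophage markers were higher for 8 of 8, and for 7 of 8 after quantile normalization, beside 44.8% and 42.9% of named genes. Of these markers 0 of 8 had a limma unadjusted p under 0.05. Their list means were 8.59 to 9.78 in the knockout and 8.74 to 9.33 in wild type. The highest macrophage mean, that of knockout replicate 8, stood beside a complex I mean of 10.91. Mesothelial markers were higher for 8 of 8 (7.86 to 8.74 in the knockout and 7.31 to 8.54 in wild type), and for 8 of 8 after quantile normalization. On deposited values 4 of them had a limma unadjusted p under 0.05, all higher, and 0 passed the adjusted threshold. Of named genes, 2.3% were past that unadjusted p on the higher side and 4.39% on the other. Upk1b, a uroplakin with the lowest p of that list, differed by 0.54 (SE 0.22; limma adjusted p = 0.414). Endothelial markers were lower for 6 of 6 (9.14 to 9.54 in the knockout and 9.13 to 9.69 in wild type) and progenitor markers higher for 5 of 5 (9.78 to 10.14 in the knockout and 9.65 to 9.98 in wild type). At a limma unadjusted p under 0.05 there were 0 endothelial markers and 1 progenitor marker, and 0 passed the adjusted threshold. Brown adipocyte markers, of cells rich in complex I, were higher for 3 of 7 (7.10 to 7.43 in the knockout and 7.12 to 7.44 in wild type). Skeletal muscle markers were higher for 6 of 8 (6.76 to 7.07 in the knockout and 6.70 to 6.93 in wild type). Epididymis markers were higher for 6 of 7 (5.72 to 10.99 in the knockout and 5.86 to 7.46 in wild type), and without knockout replicate 2 and wild-type replicate 4 the complex I difference was 0.06, with 29 of 35 members higher. The part of cell composition in the complex I values was not tested.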

How the data were processed

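For each of 15 arrays the authors deposited 35557 log2 signals, 1 per probe set, and the submitters' processing notes name RMA. RMA normalizes the arrays against each other at the level of probes and summarises the probes of a set, yet the deposited distributions of probe sets still differ between arrays. Without stating roles, these notes list affy 1.18, limma and the program Expression Console (1.1.2800.19935). Detection above background was not assessed, since no scanner output was read, and the number of arrays limits the precision.

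Genes were named from the platform annotation: 21789 probe sets have 1 symbol, 1621 several and 12147 none. The genotypes were set against each other by the two-sided moderated test of limma 3.58.1 (R 4.3.3), without covariates, with Benjamini-Hochberg adjustment over all probe sets and a threshold of 0.05; the code was tested on simulated data. Quantile normalization used limma on the deposited probe set values, as a further step after RMA. Members and lists were chosen with earlier results of these data known, so lists are described without a test. Values per group were given for core subunits, the 8 members with the lowest p, the 2 brightest and 2 dimmest, the 3 most and 3 least variable, and those on chromosome 19; non-members were Sfrp5, ND3 and genes among the 3 with the lowest p in a list. Alternatives were other normalizations, a filter at the 33rd percentile, variance models, array weights, probe set means, a block for the replicate number, and fits with arrays left out. Figures were drawn with matplotlib 3.10.9.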

Additional observations from a re-analysis of the deposited data

Results flagged for a closer look

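Of 96 sets of 7 or 8 arrays examined (35 members, the complex I mean and the 12 other list means, in each genotype), 14 held an array that stood apart from the rest by Dixon's criterion, which chance meets in about 1 in 20. The sets share arrays and members lay high or low together, so the count cannot be compared with that rate. Wild-type replicate 7 was the low array for 6 members. It read 9.60 for Ndufv1 (nearest other wild-type array 9.96), 11.54 for Ndufa2 (11.71), 8.89 for Ndufa7 (9.13), 9.72 for Ndufc1 (10.07), 11.17 for Ndufb7 (11.51) and 10.86 for Ndufb8 (11.10). Wild-type replicate 3 was the high array for Ndufs3, at 11.02 (nearest 10.80), and for Ndufa5, at 11.25 (11.14). Knockout replicate 2 was the low array for Ndufa2, at 11.64 (nearest 11.74), and for Ndufa3, at 10.13 (10.32). ND3 was low in knockout replicate 1, at 12.42 (nearest 12.72). The mean of epididymis markers was high in knockout replicate 2, at 10.99 (nearest 6.96), and in wild-type replicate 4, at 7.46 (6.53), and that of endothelial markers was low in wild-type replicate 4, at 9.13 (9.49).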

How the results depend on the processing

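No member passed limma's adjusted threshold under any alternative, nor at 0.10, and the complex I mean difference stayed above 0 in all of them, from 0.04 to 0.07 with 1 array left out. The count of 5 members at an unadjusted p under 0.05 became 1 after quantile normalization, 0 after centring arrays on their medians, 3 with array weights, 7 with an intensity trend and robust prior, 3 without wild-type replicate 4 and knockout replicate 2, 2 with knockout replicates 7 and 8 alone, 3 without these, 1 with the replicate block and 1 to 6 with 1 array left out (1 without knockout replicate 3 or 6 or wild-type replicate 2 or 7, 3 when knockout replicate 2, 4, 7 or 8 was dropped, and 2 when wild-type replicate 4 was). Same-numbered arrays deviated together with correlations of -0.12 to 0.25 and 1 of 7 knockout arrays correlated best with its own number, so the numbers were not taken to pair mice. Of the 35 members, 8 turned in sign with quantile normalization, 11 with knockout replicates 7 and 8 alone and 3 without both. Among the 19 members given by sample, these were Ndufa12 (-0.027), Ndufa4 (-0.0456) and Ndufc2 (-0.0264) with quantile normalization. With knockout replicates 7 and 8 alone they were Ndufa12 (-0.0033), Ndufa4 (-0.0297), Ndufc2 (-0.0015), Ndufv1 (-0.0753) and Ndufv2 (-0.0143), and without both Ndufs1 (0.0351) and Ndufs3 (0.0114). With 1 array left out, Ndufs3 lay between -0.0411 and 0.0125 (above 0 without wild-type replicate 3) and Ndufv1 between -0.0097 and 0.0788 (below 0 without wild-type replicate 7). ND3, whose alternatives were chosen after seeing the data, differed by 0.33 with an intensity trend and robust prior (limma adjusted p = 0.0479). With 1 array left out ND3 differed by 0.30 to 0.37, and it passed without knockout replicate 1 (limma adjusted p = 0.0135). In these 2 fits 48 and 133 of 35557 probe sets passed, against 12 in the main fit. The limma adjusted p of ND3 reached 0.386 over all settings. The cause of each move was not tested.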
